A study of Mus musculus with 13 samples.

Results

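Type 1 immunity in CD4 T cells is built on a cytokine circuit, and 9 genes of that circuit were followed here in mouse T cells with and without Foxp3, the factor that defines regulatory T (Treg) cells. The members were taken by name from both tables of read counts, and all 9 were found among the 24417 named genes. They comprise the transcription factors Tbx21, Eomes and Stat4, the cytokine gene Ifng, the chemokine receptor gene Cxcr3, the chains of the IL-12 receptor, Il12rb1 and Il12rb2, and the chains of the interferon-gamma receptor, Ifngr1 and Ifngr2. Bulk RNA-seq of sorted cells was used, with 13 libraries in 5 groups of C57BL/6 mice, each from spleen and lymph node. In the male experiment all mice received 4-hydroxytamoxifen (4-OHT) once, at postnatal day 14, and were analysed at day 21, which is 7 days later. Control Treg cells (n = 3) came from healthy Foxp3DTR-GFP/y Cd4creERT2 mice, rescued Treg cells (n = 3) from Foxp3LSL/y Cd4creERT2 mice, and Treg “wannabes” (n = 2) from Foxp3LSL/y Cd4wt mice. The LSL allele carries a Thy1.1 reporter and a STOP cassette between loxP sites, so the locus is active but no Foxp3 protein is made until the 4-OHT-activated Cre, driven from the Cd4 locus, removes the cassette; “wannabe” is the study's name for cells that use this locus without Foxp3. In the female experiment all mice received diphtheria toxin (DT) 7, 5, 3 and 1 days before analysis, at an age of 9 to 11 weeks by the sample labels. Resting “wannabes” (n = 3) came from Foxp3LSL/WT Cd4wt females, which keep wild-type Treg cells, and activated “wannabes” (n = 2) from Foxp3LSL/DTR Cd4wt females, in which DT removes the Treg cells and the mice fall ill. Control and rescued Treg cells differ both in the Foxp3 allele and in a history of disease, and these cannot be told apart. Male “wannabes” differ from both Treg groups in Foxp3 protein, in the Cd4 allele and in the course of disease. The study describes rapidly progressing, fatal disease in males of their genotype. These differences cannot be told apart either, nor can sex, age and treatment between the experiments.

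As background, IL-12 from antigen-presenting cells binds a receptor made of Il12rb1 and Il12rb2 and signals through Jak2 and Tyk2 to Stat4. Stat4 and T-bet, the product of Tbx21, drive transcription of Ifng, and T-bet also switches on Cxcr3, which guides T cells to inflamed tissue along a gradient of interferon-gamma-induced chemokines. Interferon-gamma binds Ifngr1 and Ifngr2 and signals through Jak1 and Jak2, which raises Tbx21 in its turn. Treg cells that take up T-bet and Cxcr3 are known to be suited to restraining type 1 inflammation.

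Each library held between 25556783 and 36659638 counts. Foxp3 followed the labels, at 163 to 248 CPM (counts scaled to library size) in control Treg cells, 849 to 1110 in rescued Treg cells and 54.6 to 96.7 in the 3 groups of “wannabes”, whose locus is still read. The CD4 T cell markers found in the tables, which were 5 of 6, summed to between 2730 and 4510 CPM in every library, and the CD8 list to between 10.2 and 27, of which Cd8a stayed at or under 0.559 CPM and Cd8b1 lay at 9.91 to 26.9. The B cell list summed to 10.2 to 42.7 CPM and the myeloid list to 64.2 to 133, and the 1 gamma-delta T cell gene in the tables stayed at or under 0.99. The male libraries were less alike than the female ones, with a biological coefficient of variation of 0.51 against 0.171, and the 2 male “wannabe” libraries had the lowest correlation of any replicate pair (Pearson's r 0.93 across genes, log2 CPM). All cells had been sorted as TCRβ+ CD4+ CD8- NK1.1-, Treg cells as Foxp3+ Thy1.1- and “wannabes” as Thy1.1+ Foxp3-.

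Levels are given as RPKM, reads scaled to exon length and library size, computed here from the deposited counts with edgeR's TMM scaling over all 13 libraries and exon lengths of GENCODE M21. Changes were tested within each experiment with edgeR's quasi-likelihood test, and a gene is said to rise or fall where the Benjamini-Hochberg adjusted p over all genes tested was under 0.05. All 9 members passed the filter on low counts in both experiments. The plot of levels by library shows each of them.

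**Figure D1:**
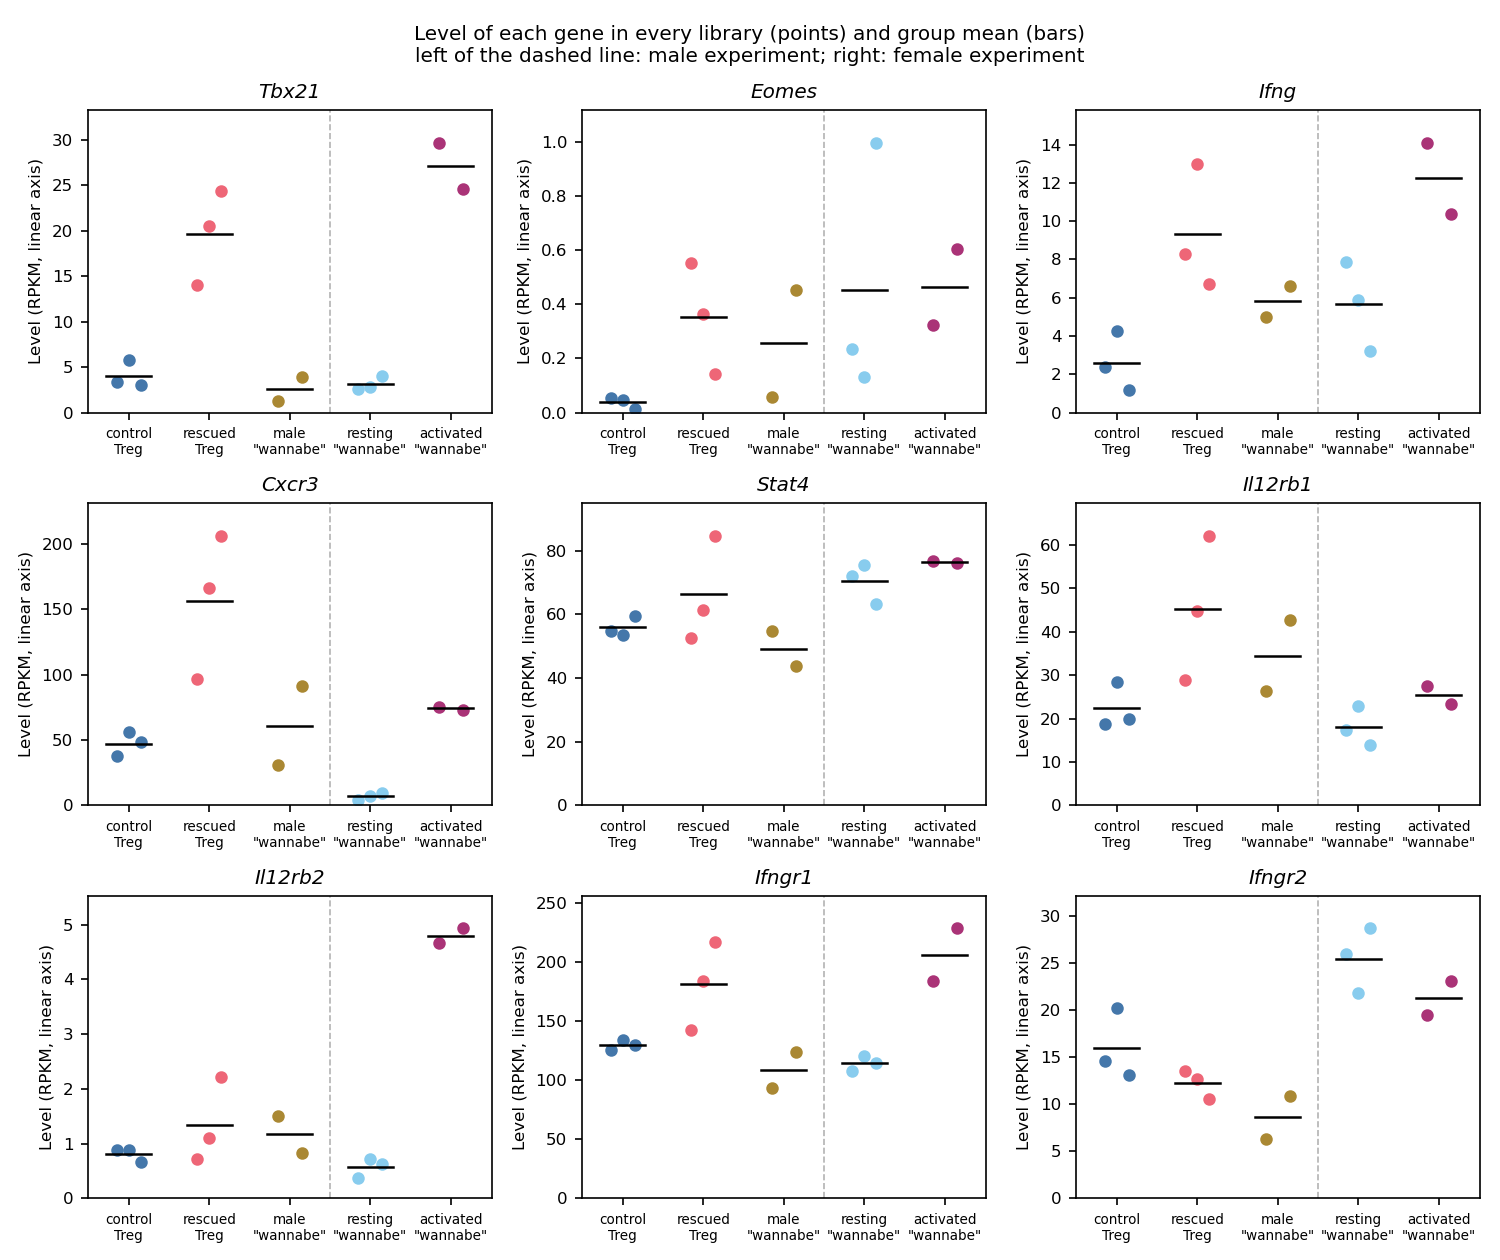
Levels of the 9 genes in RPKM (vertical axis, linear, from 0) in every library (points), by group (horizontal axis), with the group mean as a bar; n is 3, 3, 2, 3 and 2 from left to right. Tbx21 lay at 14 to 24.3 RPKM in rescued Treg cells and at 24.6 and 29.7 in activated “wannabes”, above every library of the other 3 groups, while Stat4 stayed between 43.7 and 84.8 RPKM throughout.

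In rescued against control Treg cells, Tbx21 and Cxcr3 rose, by log2 fold changes of 2.27 and 1.71. These were 2 of the 9 members, beside 2.3% of the 14925 genes tested that were called in either direction and 1.43% called higher. In 6 of the 9, namely Tbx21, Eomes, Ifng, Cxcr3, Il12rb1 and Ifngr1, the lowest rescued value exceeded the highest control value; 24.2% of all genes tested had no overlap between these groups. The other members had the values given below and did not pass the test. In bulk RNA, more cells of a kind and more RNA per cell cannot be told apart, here and in every result that follows.

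In activated against resting “wannabes”, Tbx21, Cxcr3, Il12rb2 and Ifngr1 rose and no member fell. These 4 of 9 stand beside 22.5% of the 13166 genes tested that were called and 11.3% called higher. In 7 of the 9, all but Eomes and Ifngr2, both activated libraries lay above the 3 resting libraries; 56.5% of genes tested had no overlap. All 4 calls were kept with any of the 5 female libraries left out.

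In male “wannabes” against control Treg cells, edgeR called 0 of the 9 members, beside 16.2% of all genes; 2 members, Ifng and Ifngr2, had an unadjusted p under 0.05, and DESeq2 called Ifngr2 alone. Against rescued Treg cells, Tbx21 and Ifngr1 fell, which is 2 of 9 beside 14.1% of all genes called and 10% called lower. The male comparisons share libraries with each other and are not independent. Cd4 RNA lay at 917 and 1330 CPM in male “wannabes”, 384 to 428 in control and 436 to 512 in rescued Treg cells. Lack of Foxp3, the Cd4 allele and disease were not tested apart, here and in every later comparison of male “wannabes” with Treg cells.

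**Figure D2:**
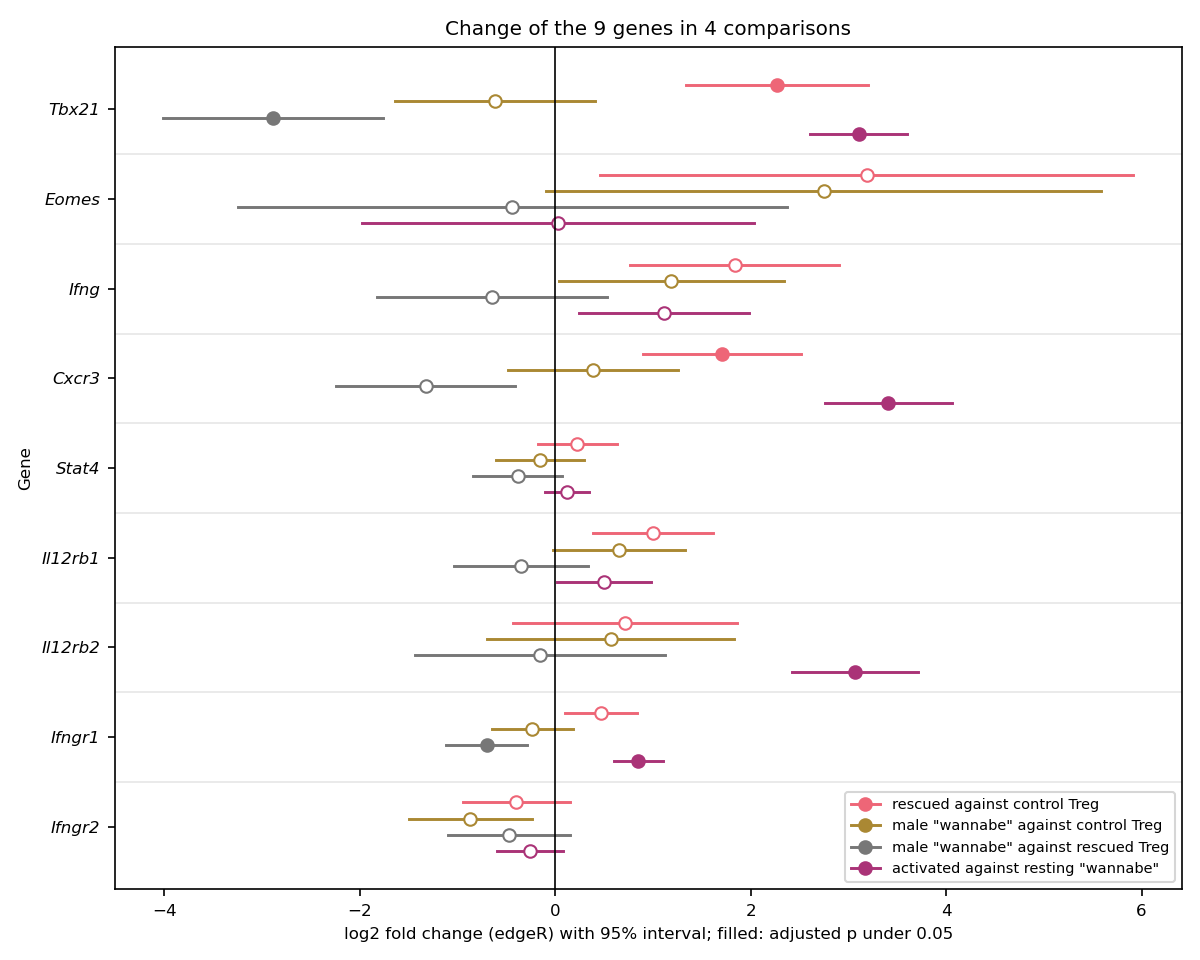
Log2 fold change (horizontal axis) of the 9 genes (vertical axis) in 4 comparisons (colours), each with its 95% interval from edgeR; filled points passed an adjusted p of 0.05. The activated “wannabe” intervals of Tbx21, Cxcr3 and Il12rb2 lie wholly above 2, and those of Eomes in the male comparisons are the widest.

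Tbx21 (chr11:97098071-97115331, minus strand of GRCm38) encodes T-bet, the lineage factor of type 1 T cells. Its levels were 3.35, 5.73 and 2.99 RPKM in control Treg cells, 14, 20.5 and 24.3 in rescued Treg cells, and 1.26 and 3.93 in male “wannabes”. All 3 rescued libraries were high and the control and male “wannabe” libraries overlapped. In females it lay at 2.63, 2.81 and 4.04 RPKM in resting and 29.7 and 24.6 in activated “wannabes”, with no overlap. Tbx21 rose 4.83-fold from control to rescued Treg cells (log2 2.27, standard error 0.42, edgeR adjusted p = 0.0192), and that from resting to activated “wannabes” was 8.59-fold (log2 3.10, standard error 0.20, edgeR adjusted p = 0.000465). Male “wannabes” were lower than rescued Treg cells (log2 fold change -2.88, standard error 0.51, edgeR adjusted p = 0.00354) and could not be told from control Treg cells (-0.61, 95% interval -1.64 to 0.41, edgeR adjusted p = 0.402). The order of mean levels ran from activated “wannabes” over rescued Treg cells to control Treg cells, resting and male “wannabes”, where control Treg cells overlapped with resting “wannabes” and these with male “wannabes”, and the other neighbours did not overlap. With 1 male library left out at a time, the rise in rescued Treg cells was called in 4 of 8 fits, and its log2 fold change stayed between 2.09 and 2.61; it was lost without control library 1 (adjusted p = 0.114) or 3 (0.0888) and without rescued library 2 (0.0547) or 3 (0.0622).

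The 250 bases before the RefSeq start site are shown for Tbx21, Il12rb2 and Ifngr1, which rose together in activated “wannabes” and whose start is at the same base in RefSeq and GENCODE. They are RefSeq sequences of GRCm38.p6, printed 5′ to 3′ along the gene. Capitals mark matches, on either strand, to 4 motifs that were searched: TTCNNNGAA, the interferon-gamma activated site, GGTGTGA, the core element of T-box factors such as T-bet, GGGCGG, the GC box, and TATAAA, the TATA box.
Tbx21 (chr11:97115332-97115581, minus strand): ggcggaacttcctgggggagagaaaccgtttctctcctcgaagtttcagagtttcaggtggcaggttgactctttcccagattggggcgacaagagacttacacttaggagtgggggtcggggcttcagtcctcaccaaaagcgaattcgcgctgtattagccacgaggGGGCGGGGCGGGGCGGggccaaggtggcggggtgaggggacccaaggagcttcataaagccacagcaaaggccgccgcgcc
Il12rb2 (chr6:67376189-67376438, minus strand): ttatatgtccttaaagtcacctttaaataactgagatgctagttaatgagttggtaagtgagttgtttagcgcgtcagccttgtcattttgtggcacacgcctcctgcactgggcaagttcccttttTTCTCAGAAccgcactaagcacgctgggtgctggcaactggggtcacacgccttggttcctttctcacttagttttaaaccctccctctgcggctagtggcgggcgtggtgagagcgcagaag
Ifngr1 (chr10:19591699-19591948, plus strand): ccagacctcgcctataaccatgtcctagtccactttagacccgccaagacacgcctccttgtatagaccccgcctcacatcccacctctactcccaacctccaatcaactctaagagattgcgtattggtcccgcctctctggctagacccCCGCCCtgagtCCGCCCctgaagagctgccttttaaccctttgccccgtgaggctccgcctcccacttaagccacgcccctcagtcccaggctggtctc
The Tbx21 window holds 3 GC boxes between -81 and -66, each sharing a base with the next, and Ifngr1 holds 2 on the opposite strand between -99 and -83. The only TTCNNNGAA match of the 3 windows lies in Il12rb2, from -123 to -115. None of the 3 holds GGTGTGA or TATAAA in these 250 bases. Among 32851 promoters of the same length, 7.02% hold TTCNNNGAA, 3.33% GGTGTGA, 32.7% GGGCGG and 12.4% TATAAA. These matches describe letters and do not show binding.

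Eomes (chr9:118478212-118486132, plus strand) encodes the T-box factor that is paired with T-bet in NK cells and cytotoxic T cells. It was at the edge of detection, at 0.0538, 0.0459 and 0.0136 RPKM in control Treg cells, which were 7, 7 and 2 reads. Rescued Treg cells had 0.551, 0.364 and 0.141 RPKM, and male “wannabes” 0.0588 and 0.452. The rescued libraries lay above the control libraries, but the log2 fold change of 3.19 carried a standard error of 1.24 (edgeR adjusted p = 0.235). Resting “wannabes” spread from 0.13 to 0.998 RPKM and enclosed the activated libraries at 0.325 and 0.603 (log2 fold change 0.03, 95% interval -1.98 to 2.04, edgeR adjusted p = 0.982). DESeq2 gave an adjusted p of 0.044 for the rescued against control change. Its exons share 118 bases with Gm33460 on the other strand.

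Stat4 (chr1:51987148-52107189, plus strand), the signal transducer of the IL-12 receptor, was abundant in every library. Its levels were 54.9, 53.6 and 59.6 RPKM in control Treg cells, 52.7, 61.3 and 84.8 in rescued Treg cells and 54.7 and 43.7 in male “wannabes”. In females they were 72.1, 75.7 and 63.4 in resting and 76.8 and 76.1 in activated “wannabes”. The male groups overlapped, and the activated libraries lay just above the resting ones. No comparison passed the test, with log2 fold changes between -0.38 and 0.23 and edgeR adjusted p-values from 0.256 to 0.655. The 95% interval of the activated against resting change was -0.10 to 0.34, and that of the rescued against control change -0.17 to 0.63. Exons of Stat4 share 1033 bases with Gm28177 on the same strand.

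Ifng (chr10:118441046-118445892, plus strand) encodes interferon-gamma, the cytokine that defines type 1 cells. Control Treg cells had 2.37, 4.25 and 1.16 RPKM and rescued Treg cells 8.3, 13 and 6.7. Male “wannabes” had 4.97 and 6.64. In females it was 7.87, 5.88 and 3.2 RPKM in resting and 14.1 and 10.4 in activated “wannabes”. Control Treg libraries were the lowest of the male libraries without overlap, and the activated libraries lay above the resting ones. No change passed the test: the log2 fold change was 1.84 in rescued against control Treg cells (standard error 0.49, edgeR adjusted p = 0.0845), 1.19 in male “wannabes” against control Treg cells (0.148) and 1.11 in activated against resting “wannabes” (standard error 0.36, edgeR adjusted p = 0.0711). DESeq2 called the first and the last of these (adjusted p = 0.00582 and 0.0181). Exons of Ifng share 336 bases with Gm49751 on the same strand.

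Cxcr3 (chrX:101731535-101734269, minus strand) is a direct target of T-bet and the receptor for interferon-gamma-induced chemokines. It lay at 37.8, 56.1 and 48.2 RPKM in control Treg cells, 96.3, 166.6 and 206 in rescued Treg cells and 30.8 and 91.1 in male “wannabes”. Rescued libraries were all the highest, and the male “wannabe” libraries lay on both sides of the controls. In females it lay at 4.38, 7.45 and 9.18 RPKM in resting and 75.3 and 73 in activated “wannabes”. The rise was 3.27-fold in rescued Treg cells (log2 1.71, standard error 0.37, edgeR adjusted p = 0.0359) and 10.6-fold in activated “wannabes” (log2 3.41, standard error 0.27, edgeR adjusted p = 0.000735). The resting libraries lay below every male library. The mean levels ran in the order rescued Treg cells, activated “wannabes”, male “wannabes”, control Treg cells and resting “wannabes”, where male “wannabes” overlapped with activated “wannabes” and with control Treg cells, and the other neighbours did not overlap. In rescued Treg cells the call was kept in 3 of 8 fits that left out 1 library; it was lost without control library 1 (adjusted p = 0.173), 2 (0.101) or 3 (0.123) and without rescued library 2 (0.0854) or 3 (0.0984). The log2 fold change of male “wannabes” against rescued cells was -1.32 (edgeR adjusted p = 0.0585; DESeq2 adjusted p = 0.00841).

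Markers of other cell types moved with part of these results. The 8 genes of the NK list, which include Eomes and the cytotoxic protease gene Gzma, summed to 0.863 to 1.88 CPM in control Treg cells, 12.1 to 26.1 in rescued Treg cells, 21.7 to 24.5 in male “wannabes”, 6.37 to 10.2 in resting and 36 to 40.5 in activated “wannabes”. Without Eomes and Gzma the other 6 genes summed to 0.607 to 1.56, 3.96 to 10.5, 5.21 to 7.19, 5.13 to 9.3 and 7.89 to 10.5 CPM in the same order. Ncr1, the defining NK cell receptor gene, was at 0 in all control, resting and male “wannabe” libraries and in rescued library 1, at 1.98 and 1.54 CPM in rescued libraries 2 and 3, and at 0.0658 and 0.1 CPM in activated libraries. In rescued libraries 1 to 3, Klre1 lay at 0, 0.543 and 0.783 CPM and Tyrobp at 0.339, 1.98 and 0.783. Fcer1g lay at 0.311, 0.815 and 1.04, Klrb1c at 3.03, 4.69 and 1.34, and Klrd1 at 0.283, 0.466 and 0.224. Klrb1c and Klrd1 were thus lowest in rescued library 3, unlike Ncr1. Klrb1c lay at 4.37 and 6.62 CPM in male “wannabes”. The sorting gate took NK1.1-negative, CD8-negative cells. Without rescued libraries 2 and 3, which leaves 1 rescued library that is assumed to vary like the others, the log2 fold change against control Treg cells was 1.80 for Tbx21 (edgeR adjusted p = 0.18) and 1.03 for Cxcr3 (edgeR adjusted p = 0.352), and 0 members were called. Male “wannabes” against the remaining rescued library then had log2 fold changes of -2.38 for Tbx21 (edgeR adjusted p = 0.0519) and -0.34 for Ifngr1 (0.512). That omission was chosen after the values were seen, and the part of NK transcripts in these changes was not tested further. The B cell list summed to 10.2 to 12.5 CPM in resting and 23.4 to 25.6 in activated “wannabes”, without overlap, and to 31.4 to 38.9 in control and 37.4 to 42.3 in rescued Treg cells. Male “wannabes” lay at 32.8 to 42.7. The myeloid list overlapped between control (82.2 to 91.2 CPM) and rescued Treg cells (85.4 to 98.5). It was higher in male “wannabes” (96.8 to 133) than in control Treg cells, and lower in activated (64.2 to 66.3) than in resting “wannabes” (68.9 to 103), without overlap. Its gene Cd68, named after its values were seen, lay at 0.224 to 0.681 CPM in control and 3.03 to 5.12 in rescued Treg cells, at 0.869 and 5.51 in male “wannabes”, and at 0.437 to 1.2 in resting and 1.97 and 2.2 in activated “wannabes”. Lyz2 was higher in activated (1.84 and 2.43 CPM) than in resting “wannabes” (0.51 to 1.54), and overlapped between control (0 to 0.396) and rescued Treg cells (0.028 to 1.36). Csf1r lay at 0, 0.0272 and 0 CPM in control and 0.311, 0 and 0.532 in rescued Treg cells, and at 0 to 1.04 in resting and 0.267 and 1.45 in activated “wannabes”. Itgam lay at 3.21 to 10.2 CPM in control and 1.59 to 6.02 in rescued Treg cells, Cst3 at 70.9 to 81.1 and 77.8 to 93.8, and S100a8 and S100a9 at or under 0.545 CPM in every library. Cst3 lay at 95.3 and 127 CPM in male “wannabes”, 63.6 to 98 in resting and 56.8 and 58.8 in activated “wannabes”. Most of the myeloid list's sum in every library was Cst3. The part of B cell and myeloid transcripts in the members' changes was not tested.

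Il12rb1 (chr8:70808449-70821424, plus strand) encodes the chain that the IL-12 and IL-23 receptors share. It lay at 18.8, 28.3 and 19.9 RPKM in control Treg cells, 28.8, 44.7 and 62.2 in rescued Treg cells and 26.3 and 42.7 in male “wannabes”. Resting “wannabes” had 17.3, 22.8 and 13.9 RPKM and activated ones 27.4 and 23.5. The rescued and the activated libraries lay above their references without overlap, and neither change passed the test. The log2 fold change was 1.00 in rescued Treg cells (standard error 0.28, edgeR adjusted p = 0.0995; DESeq2 adjusted p = 0.0117) and 0.50 in activated “wannabes” (standard error 0.20, edgeR adjusted p = 0.118).

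Il12rb2 (chr6:67291318-67376188, minus strand) encodes the signalling chain that makes the receptor specific for IL-12 and is a known mark of type 1 cells. It was low in 4 of the 5 groups, at 0.876, 0.876 and 0.671 RPKM in control Treg cells, 0.723, 1.09 and 2.21 in rescued Treg cells, 1.5 and 0.83 in male “wannabes” and 0.374, 0.719 and 0.623 in resting “wannabes”. The activated “wannabes” stood apart at 4.66 and 4.93 RPKM, above every other library. The rise from resting to activated was 8.39-fold (log2 3.07, standard error 0.27, edgeR adjusted p = 0.000937). From control to rescued Treg cells the log2 fold change was 0.72, with a 95% interval of -0.43 to 1.86 (edgeR adjusted p = 0.576), and it was 0.16 without rescued library 3. The gene overlaps Serbp1, on the opposite strand, over 6419 bases, of which 1519 are exonic in both, and the library kit does not mark strand. Serbp1 had a log2 fold change of 0.14 between resting and activated “wannabes” (standard error 0.08, edgeR adjusted p = 0.228), with 11941 normalized counts on average in the activated libraries, against 522 for Il12rb2.

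The 2 chains of each receptor differed in level. Il12rb1 over Il12rb2, per kilobase, lay at 4.76 and 5.88 in activated “wannabes” and between 17.5 and 51.4 in the other 11 libraries. Since 1519 exonic bases of Il12rb2 are shared with Serbp1, the absolute size of this ratio is uncertain. Ifngr1 exceeded Ifngr2 in every library, by 6.61 to 9.88 times in control Treg cells, 10.6 to 20.6 in rescued Treg cells, 14.8 and 11.3 in male “wannabes”, 4.01 to 5.54 in resting and 9.45 and 9.91 in activated “wannabes”. The rescued and the activated libraries lay above their reference groups.

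**Figure D3:**
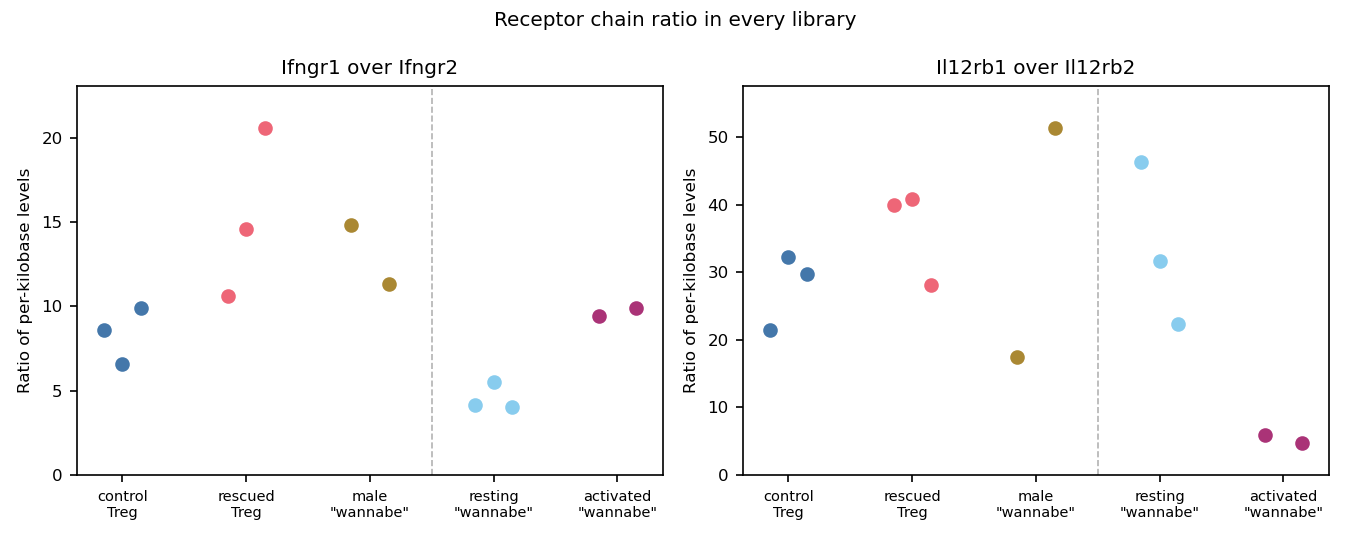
Ratio of per-kilobase levels (vertical axis, linear, from 0) of the 2 interferon-gamma receptor chains (left) and the 2 IL-12 receptor chains (right) in every library (points), by group (horizontal axis). The IL-12 receptor ratio of the activated “wannabes”, at 4.76 and 5.88, lies below all other libraries.

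Ifngr1 (chr10:19591949-19610229, plus strand) encodes the ligand-binding chain of the interferon-gamma receptor and was the most abundant member. Its levels were 125.6, 134 and 129.8 RPKM in control Treg cells, 143, 184 and 216 in rescued Treg cells and 93 and 123 in male “wannabes”. In females they were 108, 121 and 115 in resting and 184 and 228 in activated “wannabes”. The groups did not overlap within either experiment. The rise in activated “wannabes” was 1.8-fold (log2 0.85, standard error 0.11, edgeR adjusted p = 0.00312). In rescued against control Treg cells the log2 fold change was 0.47 (standard error 0.17, edgeR adjusted p = 0.189), and in male “wannabes” against rescued Treg cells it was -0.70 (standard error 0.19, edgeR adjusted p = 0.0311). The latter call was kept in 3 of 8 fits that left out 1 library; the adjusted p was 0.0516 without control library 1, 0.0533 without control library 3, 0.138 without “wannabe” library 1, 0.0716 without rescued library 2 and 0.0886 without rescued library 3. It was 0.102 with only those 2 populations fitted.

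Ifngr2 (chr16:91547072-91565623, plus strand) encodes the signal-transducing chain, which limits the response to interferon-gamma in T cells. Its levels were 14.6, 20.2 and 13.1 RPKM in control Treg cells, 13.5, 12.6 and 10.5 in rescued Treg cells and 6.3 and 10.9 in male “wannabes”. Resting “wannabes” had 25.9, 21.8 and 28.6 RPKM and activated ones 19.4 and 23. No change passed edgeR's test: the log2 fold change was -0.40 in rescued Treg cells (adjusted p = 0.495), -0.87 in male “wannabes” against control Treg cells (standard error 0.29, adjusted p = 0.0625) and -0.26 in activated “wannabes” (95% interval -0.60 to 0.08, adjusted p = 0.225). DESeq2 gave an adjusted p of 0.0264 for the second of these.

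Whether the change from control to rescued Treg cells differed from that of resting to activated “wannabes” was tested in 1 fit to all 13 libraries. edgeR called 0 of the 9 members, beside 1.53% of the 15201 genes tested; 2 members had an unadjusted p under 0.05 and DESeq2 called the same 2. These were Il12rb2, whose change was smaller by 2.33 on the log2 scale in rescued Treg cells (95% interval -3.67 to -0.99, edgeR adjusted p = 0.087; DESeq2 0.0119), and Cxcr3, smaller by 1.68 (95% interval -2.87 to -0.49, edgeR adjusted p = 0.173; DESeq2 0.0391). For Tbx21 the difference was -0.82 (95% interval -2.01 to 0.38, edgeR adjusted p = 0.593), and for Ifngr1 -0.37 (95% interval -0.87 to 0.13, edgeR adjusted p = 0.548). The 2 rises in Tbx21 were thus neither shown to differ nor shown to be alike.

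The partners of the 2 receptors are kinases, inhibitors and related cytokines, receptors and transducers, and 12 of the 14 listed were tested; Il12a and Il12b, the genes of the 2 chains of IL-12, had at most 2 and 26 counts in any library. In rescued against control Treg cells 0 rose and 1 fell, Il6st, the shared receptor chain gp130 (log2 fold change -0.74, edgeR adjusted p = 0.0206), a call lost in 6 of the 8 fits with 1 library left out and without rescued libraries 2 and 3 (0.202). The list's median log2 fold change was 0.00, beside -0.03 for all genes tested. In activated “wannabes” 4 rose and 2 fell, beside 22.5% of all genes called, with a median of 0.04 beside -0.01 for all genes. Jak2, the kinase that both receptors use, rose by 0.96 on the log2 scale (edgeR adjusted p = 0.0257). The IL-18 receptor chain gene Il18rap rose 2.3-fold (edgeR adjusted p = 0.0275). The feedback inhibitor Socs1 rose by 0.86 (edgeR adjusted p = 0.0197). Socs3 also rose, by less, while Il18r1, the other IL-18 receptor chain, fell (log2 fold change -1.05, edgeR adjusted p = 0.0264). Il27ra fell too. Jak1 had a log2 fold change of -0.22 and Tyk2 of 0.01 there, neither called. With 1 of the 5 libraries left out at a time, Socs1 was called in 4 fits, Il18r1 in 3, and Jak2 and Il18rap in 2 each. The 6 calls became 1 without activated library 1 and 0 without activated library 2, each of which leaves a lone activated library that is assumed to vary like the others.

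In male “wannabes” 3 of the 12 partners fell against control Treg cells and 0 rose, beside 16.2% of all genes called, with 1480 of 14925 lower. The count of calls lay between 2 and 5 with 1 library left out, and was 5 without “wannabe” library 2. Socs1 had 140 and 442 normalized counts, against 1096 to 2198 in control Treg cells (log2 fold change -2.36, standard error 0.57, edgeR adjusted p = 0.0168). Jak1, the kinase of the interferon-gamma receptor, had 13784 and 15205 normalized counts, against a control mean of 34134 and a lowest control library of 27974 (log2 fold change -1.24, standard error 0.16, edgeR adjusted p = 0.00105), and Il6st fell by 1.02 on the log2 scale (0.00229). The Socs1 call was lost without control library 2 (adjusted p = 0.0501) or “wannabe” library 1 (0.0692), and its log2 fold change lay between -3.37 and -1.75 with 1 library left out. Against rescued Treg cells, Socs1 (-2.96), Socs3 (-1.56) and Jak1 (-1.38) fell and Jak2 (0.79) rose, at edgeR adjusted p-values of 0.00628, 0.014, 0.0004 and 0.0348. Both Jak1 calls were made under all alternatives that were run. Jak2 was called in 3 of 8 fits with 1 library left out (adjusted p up to 0.149) and not with only those 2 populations fitted (0.072). Without rescued libraries 2 and 3 the calls of Jak2 (0.179) and Socs3 (0.0906) against rescued Treg cells were lost.

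Of 17 other genes of type 1 effector T cells, such as chemokines and cytotoxic granule genes, 16 were tested in males and 15 in females. In rescued against control Treg cells, where 2.3% of all genes were called, 3 rose, which were the granule gene Nkg7, the chemokine receptor gene Cxcr6 and Klrg1, a receptor of differentiated T cells, and 2 fell, Lta and Txk. Nkg7 had 1047 to 1478 normalized counts in control and 3339 to 5244 in rescued Treg cells (log2 fold change 1.73, edgeR adjusted p = 0.0229), Cxcr6 1026 to 1576 and 3088 to 5110.3 (1.65, 0.00498), and Klrg1 4313 to 5401 and 9657 to 14210 (1.27, 0.0102). Lta, which encodes lymphotoxin, fell from 2929 to 3697 to between 939 and 1500 normalized counts (log2 fold change -1.54, edgeR adjusted p = 0.00964). With 1 male library left out at a time, Cxcr6 and Lta were called in 8 of 8 fits, Klrg1 in 7 and Nkg7 in 3 (adjusted p up to 0.115), and without rescued libraries 2 and 3 the adjusted p was 0.119 for Klrg1 and 0.154 for Nkg7. The median over the list was 0.79. The count of 5 calls lay between 2 and 8 with 1 male library left out, was 2 without rescued libraries 2 and 3 and 9 with DESeq2. It was 2 without control library 2, 3 without control library 1 or 3 or rescued library 2 or 3, and 8 without “wannabe” library 1.

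In activated “wannabes” 6 of the 15 rose, namely Nkg7, Ccl5, Klrg1, Ccl4, Hopx and Havcr2, and 0 fell, beside 11.3% of all genes called higher and 22.5% called. Nkg7 went from 127, 165 and 221 normalized counts in resting to 3250.2 and 3074 in activated libraries (log2 fold change 4.21, standard error 0.21, edgeR adjusted p = 0.000273). Hopx (0.79, edgeR adjusted p = 0.00453) and Havcr2, the gene of the inhibitory receptor Tim-3 (0.59, 0.0423), rose less. The Havcr2 call was made in 1 of 5 fits with 1 library left out and was lost without the filter on low counts (adjusted p = 0.0557). The median was 0.59, and the 6 calls became 3 without activated library 1 and 2 without activated library 2. Male “wannabes” were higher than control Treg cells in Cxcr6 (2.87), Bhlhe40 (2.48), Havcr2 (2.46) and Nkg7, and lower in Klrg1 (-1.55) and Hopx, at edgeR adjusted p-values of 0.00016, 0.00016, 0.0124 and 0.00191 for those with a value. These 6 of 16 tested stand beside 16.2% of all genes called. Without “wannabe” library 1 the Havcr2 call was lost (log2 fold change 2.12, edgeR adjusted p = 0.0522), and with DESeq2 the 6 calls became 10. Against rescued Treg cells, Klrg1 (-2.82) and Runx3 (-1.41) were lower and Bhlhe40 (1.76), Cxcr6 (1.22) and Lta higher, at edgeR adjusted p-values of 0.000233, 0.00722, 0.0004 and 0.0059 for those with a value. In that comparison 14.1% of all genes were called.

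Genes that interferon-gamma is known to induce, such as guanylate-binding proteins and the antigen-processing machinery, give a readout of the signal itself; type I interferon induces many of them too. Of the 22 listed, 18 were tested, since Igtp, Gbp3, Gbp6 and Gbp7 had 0 counts in every library. The related Gbp4 had 9969.7 normalized counts or more in every library. Whether RNA of those untested genes was absent or their reads were not assigned cannot be told from the counts. In rescued against control Treg cells edgeR called 0 of the 18, with 2 at an unadjusted p under 0.05 and 2 called by DESeq2, beside 2.3% of all genes called. The groups overlapped in all 18, whereas 24.2% of all genes had no overlap, and the median log2 fold change was 0.16. Irf1, an early target of interferon-gamma, had a log2 fold change of 0.16 (95% interval -0.35 to 0.66). In activated “wannabes” 10 of the 18 rose and 0 fell, beside 11.3% of all genes called higher and 22.5% called in either direction, with a median of 0.41. The largest were Gbp2 (0.90), Iigp1 (0.87), Socs1 (0.86) and the immunoproteasome gene Psmb9 (0.81), with edgeR adjusted p-values of 0.00944, 0.0298, 0.0197 and 0.00136. The others were Tap1, Psmb8, Cd274, Psmb10, Gbp4 and Tapbp. Gbp2 went from 3379, 4385 and 4444 normalized counts to 6733 and 8477. Irf1 had a log2 fold change of 0.28 there (edgeR adjusted p = 0.0719). The 10 calls became 5 without activated library 1 and 2 without activated library 2. With 1 library left out at a time, Psmb9 was called in 5 of 5 fits, Gbp2 in 4 and Iigp1 in 3. Whether the 2 experiments differ for this list was tested gene by gene in the contrast above, where edgeR called 0 of 18, 1 gene had an unadjusted p under 0.05 and DESeq2 called 0. In male “wannabes” Tapbp rose (log2 fold change 0.57, edgeR adjusted p = 0.0464, a call lost in 6 of 8 fits with 1 library left out) and Socs1 fell against control Treg cells, and Irf8 (-1.43, 0.00717) and Socs1 fell against rescued Treg cells. Each comparison thus called 2 of 18, beside 16.2% of all genes against control and 14.1% against rescued Treg cells. Without rescued libraries 2 and 3 the Irf8 call was lost (log2 fold change -0.82, edgeR adjusted p = 0.213), and so was that of Tapbp (0.0643). The 2 calls against control Treg cells became 4 without “wannabe” library 1 and 1 without any other single library, and the 2 against rescued Treg cells became 5 without “wannabe” library 1.

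**Figure D4:**
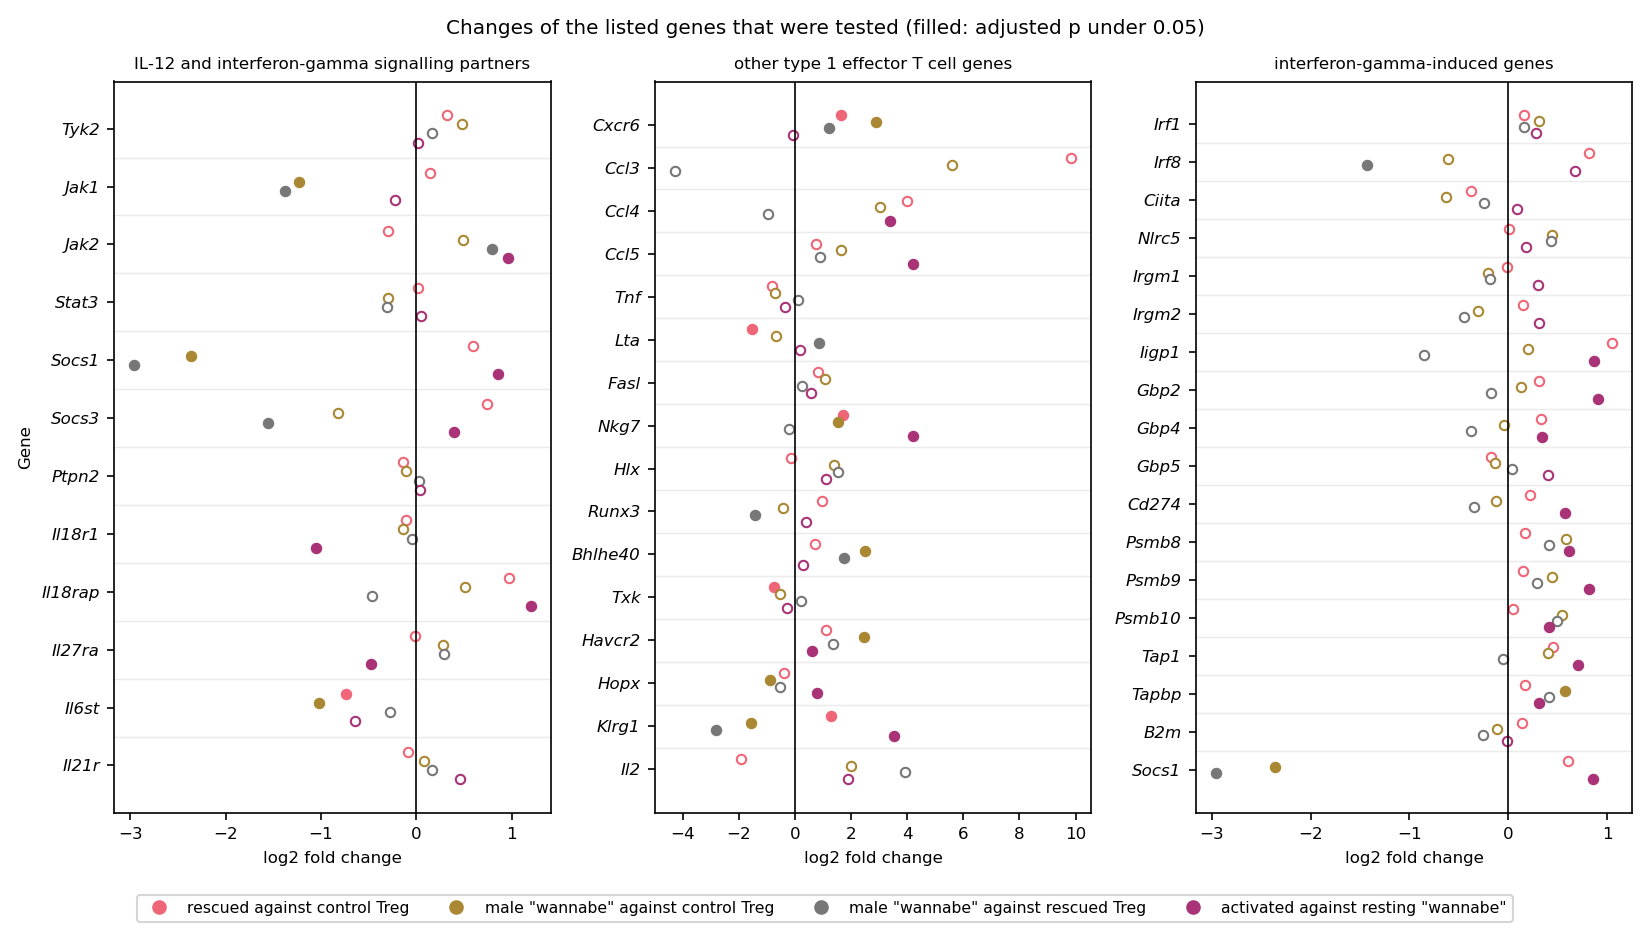
Log2 fold changes (horizontal axis) of the tested genes of 3 lists (vertical axis), in 4 comparisons (colours); filled points passed an adjusted p of 0.05 in edgeR. In the right panel 10 genes are filled for activated against resting “wannabes” and 0 for rescued against control Treg cells.

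Across the 13 libraries, with each gene centred on the mean of its experiment, the levels of several members ran in parallel. Pearson's r of log2 CPM was 0.94 between Tbx21 and Ifngr1, 0.93 between Tbx21 and Cxcr3, 0.92 between Cxcr3 and Ifngr1 and 0.84 between Cxcr3 and Il12rb2. Ifng correlated best with Il12rb1 among the members (0.77), and Ifngr2 had values between -0.41 and 0.11 with all other members. The libraries fall into the study's groups, so these values describe the group pattern. Among 10239 genes with a mean over 100 normalized counts in both experiments, the 5 most like Tbx21 were Map2k3 (0.94), Ifngr1 (0.94), Lsr (0.94), Trp53i11 (0.93) and Cxcr3 (0.93). Those most like Ifngr1 were Tbx21 (0.94), Abcb1a (0.94), Cxcr3 (0.92), Hip1 (0.91) and Baiap3 (0.90). Those most like Ifng were Lppos (0.88), Tlr6 (0.86), Gzmb (0.84), Mlycd (0.84) and Soat2 (0.84), with none of the members among them.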

How the data were processed

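Bulk RNA-seq libraries of doubly sorted cells (SMART-Seq v4 cDNA, a kit that does not mark strand) were used from a male (8 libraries) and a female (5) experiment. The authors mapped reads with STAR 2.7.3a (build GRCm38), used GATK for local realignment, and deposited raw counts per gene made in R; the annotation and the strand setting are not given in the sources used here. Of 24421 entries per table, 4 carry no gene name and were dropped, which are 0.00579% (male) and 0.00638% (female) of counts. Groups and replicate numbers follow the titles; GEO's design text gives the numbers of resting and activated libraries the other way round. The methods describe biological replicates, and every replicate pair differed by more than counting noise.

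Counts were tested in R 4.3.3 with edgeR 4.0.16 (TMM, filterByExpr, quasi-likelihood F test, Benjamini-Hochberg, adjusted p under 0.05), with 1 fit to the 8 male libraries, 1 to the 5 female libraries and 1 to all 13 for the difference of changes. Intervals are 95% intervals of the fit. Normalized counts are scaled by TMM within an experiment. Alternatives were DESeq2 1.42.0, its size factors in edgeR, no filter, a block for the replicate number, fits restricted to the 2 populations compared, and leaving out each library in turn. The scripts were tested on simulated data. Coordinates are those of GENCODE M21 (GRCm38).

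The 9 members and the gene and marker lists were chosen with earlier results of these data known. All members are described. From each list, up to 4 genes past the threshold with the largest change and a mean over 100 normalized counts were named with values, plus Jak1, Jak2, Tyk2 and Irf1; other called genes are named without values. Likeness is Pearson's r of log2 CPM with a prior count of 2. Protein sequences were not used here, and 2 genes of the lists are not reported here.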

Additional observations from a re-analysis of the deposited data

Results flagged for a closer look

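The changes of 2 genes of the type 1 effector list differed between the 2 experiments in edgeR's quasi-likelihood fit, with p-values adjusted over all genes. They were 2 of 16 tested, beside 1.53% of all genes called. The count was 6 with DESeq2, 5 without the filter, and 1 without rescued library 3 or resting library 1 or 2. For Lta, the log2 fold change of rescued against control Treg cells (-1.54) minus that of activated against resting “wannabes” (0.20) was -1.73 (adjusted p = 0.0136), lay between -1.96 and -1.57 with 1 library left out, and was called in 12 of 13 such fits. For Nkg7, which was higher in both comparisons (1.73 and 4.21), it was -2.46 (adjusted p = 0.0224; range -2.69 to -2.28), and 8 of 13 called it. In Hopx all rescued libraries lay below the control ones, and both activated libraries above the resting ones. No overlap was found in 24.2% and 56.5% of all genes tested in these comparisons. The log2 fold changes of Hopx were -0.372 in rescued Treg cells, which was not called, and 0.79 in activated “wannabes”. Their difference missed the threshold (-1.15, adjusted p = 0.0512). The causes were not tested, and sex, age and treatment cannot be told apart between the experiments. No group held 4 or more libraries, so none was examined for a library far from the others.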

How the results depend on the processing

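The 4 members called in activated “wannabes” were called under all alternatives that were run, with 4 or 5 members called when 1 library was left out. In rescued against control Treg cells the 2 called members became 5 with DESeq2, 4 without a filter on low counts and 0 without rescued libraries 2 and 3, an omission added after seeing the data, and 0 to 2 with 1 library left out. In male “wannabes” the 0 called against control Treg cells became 1 with DESeq2 and 1 without the filter (0 to 1 with 1 library left out), and the 2 called against rescued Treg cells became 3 with DESeq2 and without the filter, with Cxcr3 gained (adjusted p = 0.00841 and 0.0115), 1 when only those 2 populations were fitted and 0 without rescued libraries 2 and 3 (1 to 3 with 1 library left out). In the difference of changes 0 became 2 with DESeq2 and 1 (Il12rb2) without rescued libraries 2 and 3 (0 to 1 with 1 library left out).

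Over all genes, 343 calls in rescued against control Treg cells became 1195 with DESeq2, 612 without the filter, 580 with 2 populations and 114 to 598 with 1 library left out. In male “wannabes”, 2416 calls against control Treg cells became 3767 with DESeq2 and 1549 to 2423 with 1 library left out. Against rescued Treg cells, 2105 became 3335 with DESeq2 and 1142 without rescued libraries 2 and 3. In activated “wannabes” 2958 became 751 to 3215 with 1 library left out. In the difference of changes 233 became 805 with DESeq2, 396 without rescued libraries 2 and 3 and 44 to 430 with 1 library left out.

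Whether the replicate numbers pair the libraries was not settled. Deviations of same-numbered libraries correlated by -0.0528 to 0.3 in 7 male pairs, and those of differently numbered ones by -0.3 to 0.225 in 14. In females the ranges were -0.0742 to -0.0426 in 2 pairs and -0.03 to 0.0742 in 4. In a group of 2 libraries the deviations mirror each other, so the check cannot decide. With the number as a replicate block, 4 members were called in rescued Treg cells, 1 in male “wannabes” against control Treg cells, 3 against rescued Treg cells (Cxcr3 gained, adjusted p = 0.00808) and 1 in the difference of changes, and the Havcr2 call in activated “wannabes” was lost (0.117). Under the block, Tyk2 rose in male “wannabes” against control Treg cells (0.59 on the log2 scale, edgeR adjusted p = 0.0421, against 0.185 without it) and the 2 calls among interferon-gamma-induced genes there became 4. Under the block, Il12rb2 was 0.078 on the log2 scale in male “wannabes” against rescued Treg cells. In rescued against control Treg cells it added calls of Ifng (edgeR adjusted p = 0.028) and Il12rb1 (0.0371). The block also called 1 interferon-gamma-induced gene there, against 0 without it.

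Other log2 fold changes that changed sign were all uncalled. Without rescued libraries 2 and 3 those in rescued against control Treg cells were -0.080 for Stat4, -0.15 for Il12rb2 and -0.033 for Irf1; those of male “wannabes” against the remaining rescued library were 0.31 for Il12rb1 and 0.76 for Il12rb2. The differences of changes were then -0.19 for Stat4, -0.12 for Il12rb1 and 0.031 for Ifngr2. With 1 library left out, in male “wannabes” against control Treg cells Cxcr3 lay between -0.526 and 0.966, Stat4 between -0.339 and 0.0611 and Irf1 between -0.124 and 0.679. Against rescued Treg cells Eomes lay between -2.47 and 0.384, Il12rb2 between -0.657 and 0.401, Tyk2 between -0.0988 and 0.414 and Irf1 between -0.282 and 0.521. In activated “wannabes” Eomes lay between -0.49 and 1.33 and Tyk2 between -0.0839 and 0.0922. The differences of changes lay between -0.0666 and 0.253 for Stat4 and between -0.24 and 0.107 for Ifngr2. The causes were not tested. Eomes counts were low, at 2 to 7 reads in control libraries and 9 to 114 in the others.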
